A study of Arabidopsis thaliana with 4 samples.

Results

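The WRKY transcription factors of Arabidopsis thaliana were followed in whole seedlings grown with or without the synthetic compound ASP. The members were 53 WRKY loci, and a locus counted as measured where the array held a probe set whose annotation named that locus alone. This held for 48 of them, out of 21226 genes with such a probe set. WRKY29, WRKY41, WRKY50, WRKY51 and WRKY62 had no probe set in the table used here, and each measured member had a single one. All groups were wild-type seedlings of accession Columbia 0, 5 days old, raised on half-strength MS medium with 0.1% sucrose at 22 to 24 °C in 16 h of light and 8 h of dark. The 2 control arrays came from seedlings without ASP and the 2 ASP arrays from seedlings on medium with ASP for 5 days, each group being described as biological replicates. ASP is a piperazine that carries a bromophenoxyacetyl and a fluorophenylsulfonyl group. The labels name neither its dose nor its solvent.

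WRKY factors are plant regulators named after a conserved peptide that, together with a zinc finger, binds the W-box, a short element in the promoters of many defence genes. Members are sorted into classes by their domains: class I carries a pair of WRKY domains, class II a single one in subclasses IIa to IIe, and class III a single one with a different zinc finger. Many are induced within a short time of pathogen perception, through receptor kinases and MAP kinase cascades, and many bind W-boxes in each other's promoters. Others act in development or nutrition. WRKY23 lies downstream of the auxin repressor IAA14 and the response factors ARF7 and ARF19, and was linked to flavonol synthesis in the root.

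No WRKY member passed a Benjamini-Hochberg adjusted p under 0.05 between ASP and control seedlings. The count was 0 of 48 in limma's fit, beside 0% of the 22746 probe sets tested, and the smallest adjusted p of a member was 0.604. Since this fit called no probe set on the array, and missed moderate changes in simulated arrays, the count does not show that the members did not differ. At an unadjusted p under 0.05, limma listed 3 members as higher with ASP and 1 as lower. These were WRKY23, WRKY31 and WRKY30 on the higher side and WRKY72 on the lower side, which makes 6.25% and 2.08% of the members beside 3.33% and 4.09% of all probe sets (7.42% in either direction). With a variance prior that followed signal intensity (the intensity trend), 0.317% of all probe sets passed adjustment, and again 0 of the 48 members, with a smallest adjusted p of 0.393. At an unadjusted p under 0.05 this trend fit of limma listed WRKY7, WRKY23 and WRKY30 as higher, where 4.69% of all probe sets were, and WRKY46 and WRKY72 as lower, where 4.78% were. The count of members stayed at 0 where limma called more probe sets: 1.41% with a replicate block and the trend, 0.121% among probe sets present on at least 2 arrays, 1.23% among those with the trend, and 0.113% without the dimmest 30%. A test on each gene's own variance, with no prior shared between genes, called 0 members after adjustment and listed WRKY31 alone at an unadjusted p under 0.05. The authors' deposited table of differing genes, built on 3 columns per group, held 148 probe sets at a fold of at least 2, beside 22746 tested here. Of the 148, 0 belonged to a listed WRKY locus. With so few probe sets listed, that count says little about 48 members. Because RNA came from whole seedlings, fewer cells that express a gene and less RNA of that gene per cell cannot be told apart.

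The log2 fold change, ASP minus control, was above 0 in 22 members and below 0 in 26, which is 45.8% higher beside 47.5% of all probe sets. The median was -0.05 for the members and -0.02 for all probe sets, and 39 of the 48 lay within 1.5-fold, as did 17690 of all 22746 probe sets. Both ASP arrays lay above both control arrays for 11 members (22.9%, beside 18.5% of all probe sets) and below them for 8 (16.7%, beside 20.9%). In 35 members the gap between the replicates of a group was wider than the difference between the group means in at least 1 of the groups. That share, 72.9%, compares with 73.6% of all probe sets.

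**Figure D1:**
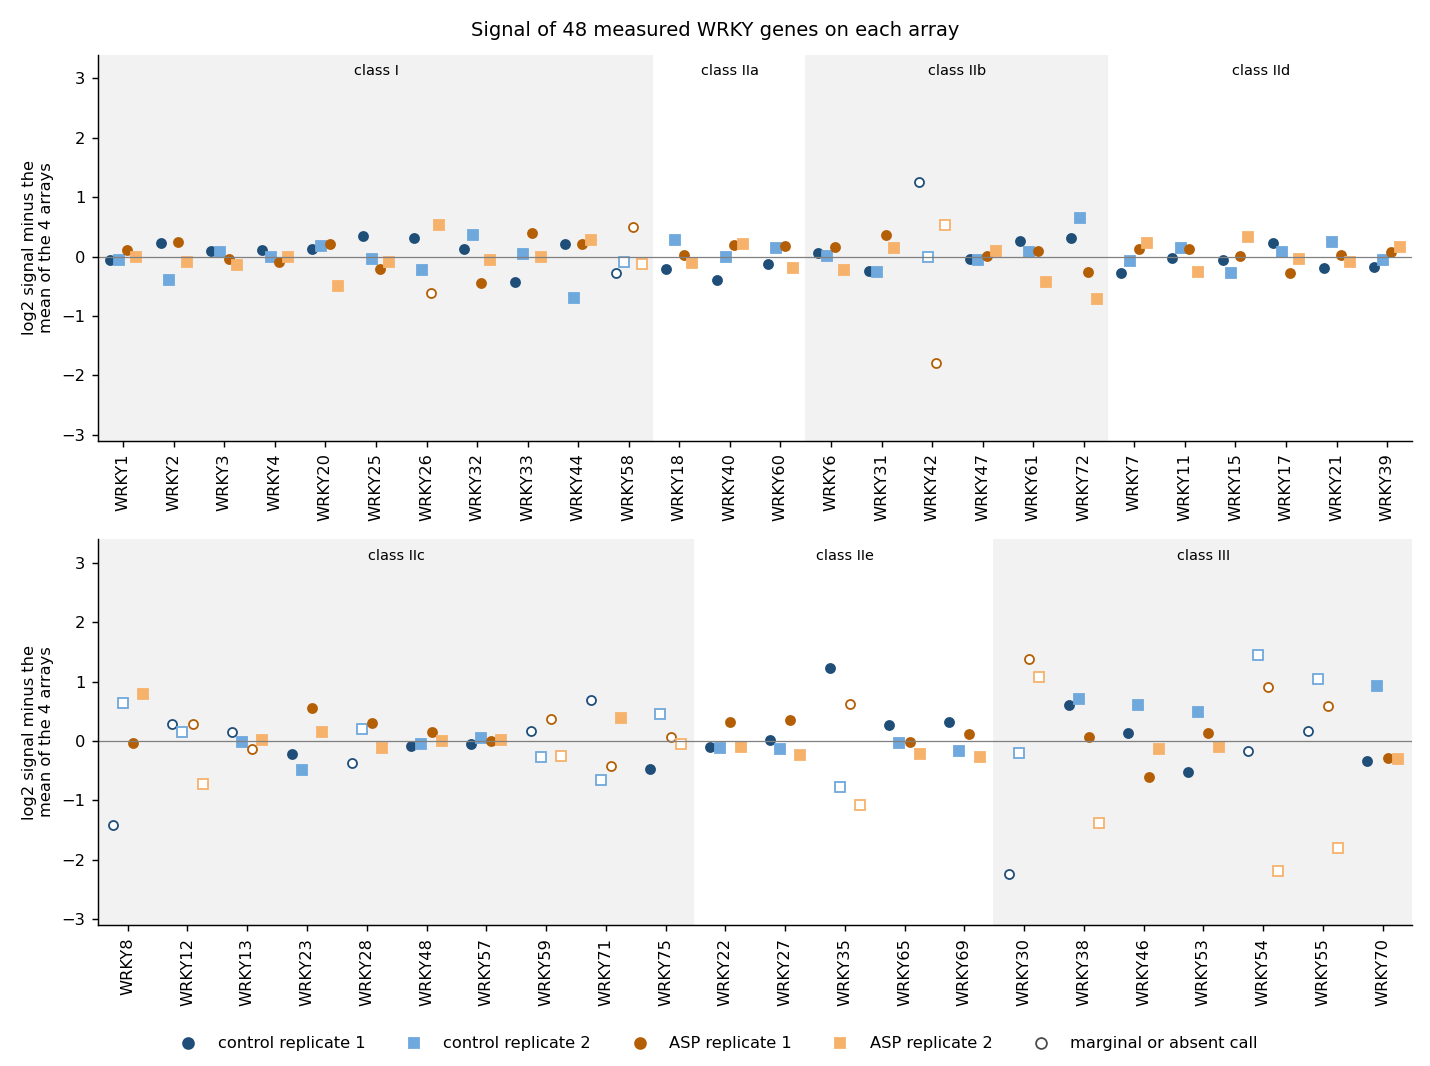
Log2 signal of the 48 measured WRKY genes on each array, as the difference from the gene's own mean over the 4 arrays, by domain class. Circles and squares are replicates 1 and 2, blue is control and orange is ASP, and open symbols carry a marginal or absent call; in class III the lighter blue squares, control replicate 2, lie above the darker blue circles in all 7 measured genes.

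Detection calls, which the authors deposited as present, marginal or absent, set how far a value can be read. Of the 48 members 33 were called present on all 4 arrays, or 68.8% beside 62.7% of all probe sets. Another 7 were absent on all 4, or 14.6% beside 24.9%. The absent members were WRKY12, WRKY30, WRKY42, WRKY54, WRKY55, WRKY58 and WRKY59, whose values lie below detection and give no fold. The other 8, WRKY8, WRKY13, WRKY26, WRKY28, WRKY35, WRKY38, WRKY71 and WRKY75, had mixed calls. A difference of at least 2-fold was listed for 5 members (10.4%, beside 12.0% of all probe sets). Of these 5, 4 were absent on every array, as were 2173 of the 2740 such probe sets, and the remaining one was WRKY38.

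WRKY23 (AT2G47260), the auxin-linked member, was present on all 4 arrays. Its log2 signal was 6.85 and 6.59 in control and 7.63 and 7.22 with ASP, or 6.72 ± 0.19 against 7.43 ± 0.29 (SD, n = 2 each). Both ASP arrays lay above both control arrays, and the gaps within each group, 0.26 and 0.41, were narrower than the difference between them. The log2 fold change was 0.71 with a standard error of 0.23, a 1.64-fold higher mean. Limma gave an unadjusted p of 0.0466 and an adjusted p of 0.669, and an adjusted p of 0.473 with the intensity trend. The 95% confidence interval of the log2 difference, not adjusted for the number of genes, ran from 0.02 to 1.40. Among the 48 members it was the only one that the deposited annotation assigns to the auxin response.

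The genes known to act upstream of WRKY23 were measured on the same arrays. ARF7 (AT5G20730), an auxin response factor, had 9.09 and 8.82 in control and 9.36 and 9.31 with ASP, a log2 fold change of 0.38 (limma adjusted p 0.747). ARF19 (AT1G19220), its close relative, had 7.66 and 7.57 in control and 7.92 and 7.85 with ASP, a log2 fold change of 0.27 (limma adjusted p 0.775). The groups did not overlap in either gene, while IAA14 (AT4G14550), the repressor that holds both factors in check, overlapped with 7.76 and 7.33 against 7.75 and 8.00. All 3 genes had log2 fold changes above 0, and none passed adjustment with or without the trend.

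Flavonol synthesis genes, the process to which WRKY23 was linked, mostly had values below 0. Of 8 listed genes 7 were lower, with a median log2 fold change of -0.51, and 0 passed adjustment in either fit. Only 5 of the 8 were present on all 4 arrays, and the 1 higher gene, MYB11, was absent on all. F3H, the flavanone hydroxylase, had 9.99 and 9.97 in control and 9.20 and 9.39 with ASP, a log2 fold change of -0.69 (limma adjusted p 0.550, and 0.0847 with the trend). The groups did not overlap in this gene. The flavonoid 3′-hydroxylase gene TT7 and the flavonol synthase gene FLS1 had log2 fold changes of -0.67 and -0.64, also without overlap. MYB111, a regulator of the pathway with a present call on only 1 array, had -0.96. So the values of WRKY23 and of most of these genes had opposite signs.

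**Figure D2:**
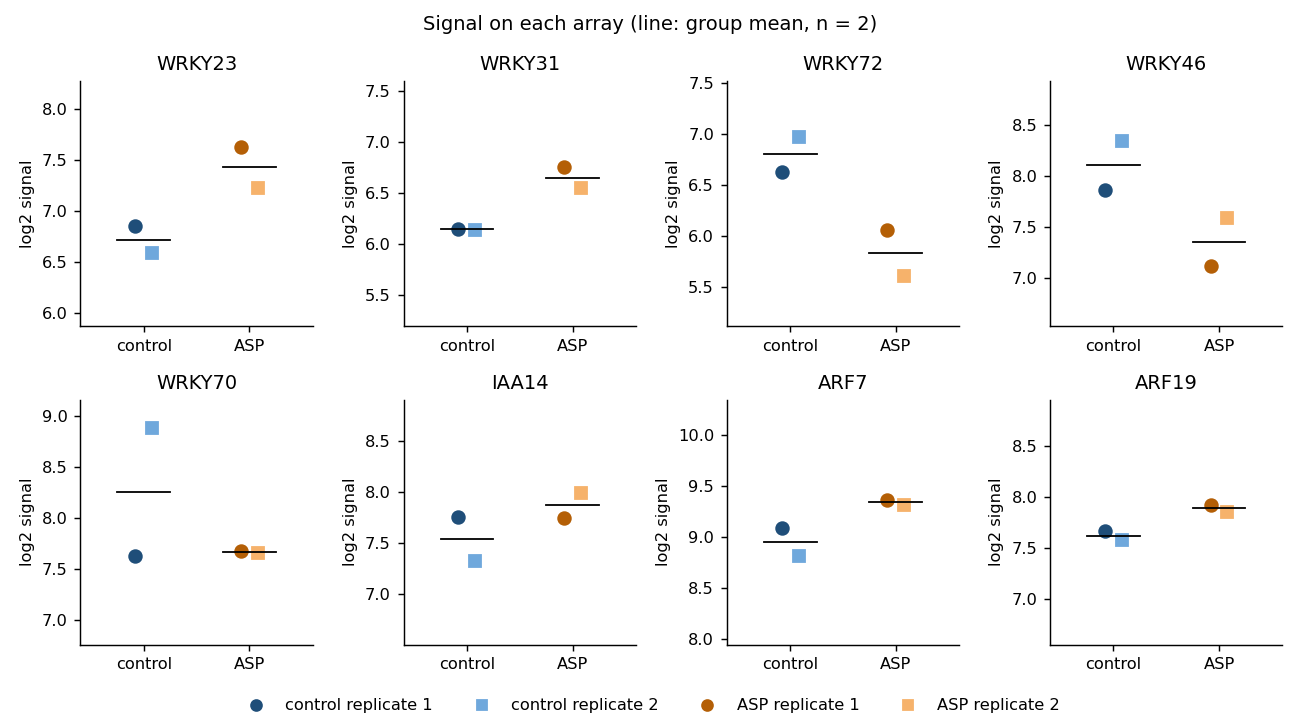
Log2 signal on each array for 5 WRKY genes and the 3 genes upstream of WRKY23, with a line at each group mean (n = 2) and a window of equal height in every panel. The groups are apart for WRKY23, WRKY31, WRKY72, WRKY46, ARF7 and ARF19, while in WRKY70 control replicate 2 stands above the other 3 arrays.

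Class IIb held both of the other present members at an unadjusted p under 0.05, and they went in opposite directions. WRKY72 (AT5G15130), which contributes to basal defence, had 6.63 and 6.98 in control and 6.06 and 5.61 with ASP. Both ASP arrays lay below both control arrays, with a log2 fold change of -0.97 (standard error 0.26), a 1.96-fold lower mean. Limma gave it the smallest p of any member, 0.0269, and an adjusted p of 0.604. WRKY31 (AT4G22070) had 6.15 and 6.14 in control and 6.75 and 6.54 with ASP. Its control arrays were almost identical, and the log2 fold change was 0.51 (standard error 0.15, limma unadjusted p 0.0401, adjusted p 0.651). With the intensity trend, which gives that small spread less weight, the standard error was 0.33 and the unadjusted p of limma 0.167.

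The other 4 members of class IIb were not separated to that degree. WRKY6, a regulator in senescence and phosphate transport, had a log2 fold change of -0.08 and overlapping groups. WRKY47 had 0.10 with both ASP arrays above the control arrays, and WRKY61 had -0.34 with overlap. WRKY42, known to act on phosphate transport genes, was absent on all 4 arrays. Among listed phosphate genes linked to these factors, SPX1, a phosphate sensor gene, had 10.38 and 10.21 in control and 8.94 and 8.71 with ASP. Both ASP arrays lay well below both control arrays. Its log2 fold change was -1.47, and it was the 1 linked gene of any list that passed limma's adjusted test with the trend (adjusted p 0.00697, and 0.371 without it). PHO1, the phosphate exporter gene that WRKY6 and WRKY42 repress, had -0.15, and PHR1, a master regulator of phosphate starvation, had 0.32. The phosphate transporter gene PHT1;4 was absent on all arrays.

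Class III holds many members tied to salicylic acid, and 7 of its 9 listed genes were measured. The median log2 fold change was -0.75, with 5 lower and 2 higher, but 3 of the 7 were absent on all arrays. WRKY46 (AT2G46400), known from basal resistance and from responses to drought, had 7.87 and 8.35 in control and 7.13 and 7.59 with ASP. Both ASP arrays lay below both control arrays by a narrow margin, with gaps of 0.48 and 0.47 inside the groups. In each group replicate 2 was the higher array. The log2 fold change was -0.75 (standard error 0.29, limma adjusted p 0.719). The trend gave WRKY46 the smallest adjusted p of any member, 0.393, at an unadjusted p of 0.0187. With a replicate block limma gave it an unadjusted p of 0.0337 and an adjusted p of 0.7345. With the block and the trend these were 0.00565 and 0.180.

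WRKY70 (AT3G56400), which promotes salicylic acid responses and restrains jasmonate responses, had 7.62 and 8.88 in control and 7.68 and 7.66 with ASP. Only control replicate 2 stood apart, and the other 3 arrays lay within a narrow band. The log2 fold change of -0.58 (limma adjusted p 0.834) was 0.04 without that array. WRKY53 (AT4G23810), a promoter of leaf senescence, had 6.11 and 7.13 in control and 6.77 and 6.54 with ASP. The ASP values lay between the control values, with a log2 fold change of 0.04 (95% interval -1.25 to 1.32). It was -0.48 without control replicate 1 and -0.08 without ASP replicate 1, so its direction depended on single arrays.

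WRKY38 (AT5G22570), which limits basal defence, had 6.07 and 6.16 in control and 5.53 and 4.08 with ASP. The groups did not overlap, but the second ASP array carried an absent call and the ASP replicates differed by 1.45. Its log2 fold change was -1.31, a 2.47-fold lower mean (limma adjusted p 0.743). Without ASP replicate 2 the log2 fold change was -0.58. WRKY54 (AT2G40750), the closest relative of WRKY70, and WRKY55 (AT2G40740) neighbour each other with 0 genes between them in the reference annotation. WRKY54 had 5.14 and 6.76 in control and 6.21 and 3.12 with ASP, and WRKY55 had 4.76 and 5.63 in control and 5.17 and 2.78 with ASP. In both the lowest value was that of ASP replicate 2 and the highest that of control replicate 2, and all 8 calls were absent. WRKY30, an early gene of oxidative stress, had 0.65 and 2.68 in control and 4.27 and 3.96 with ASP, all below detection, so its unadjusted p of 0.0486 from limma rests on values called absent.

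**Figure D3:**
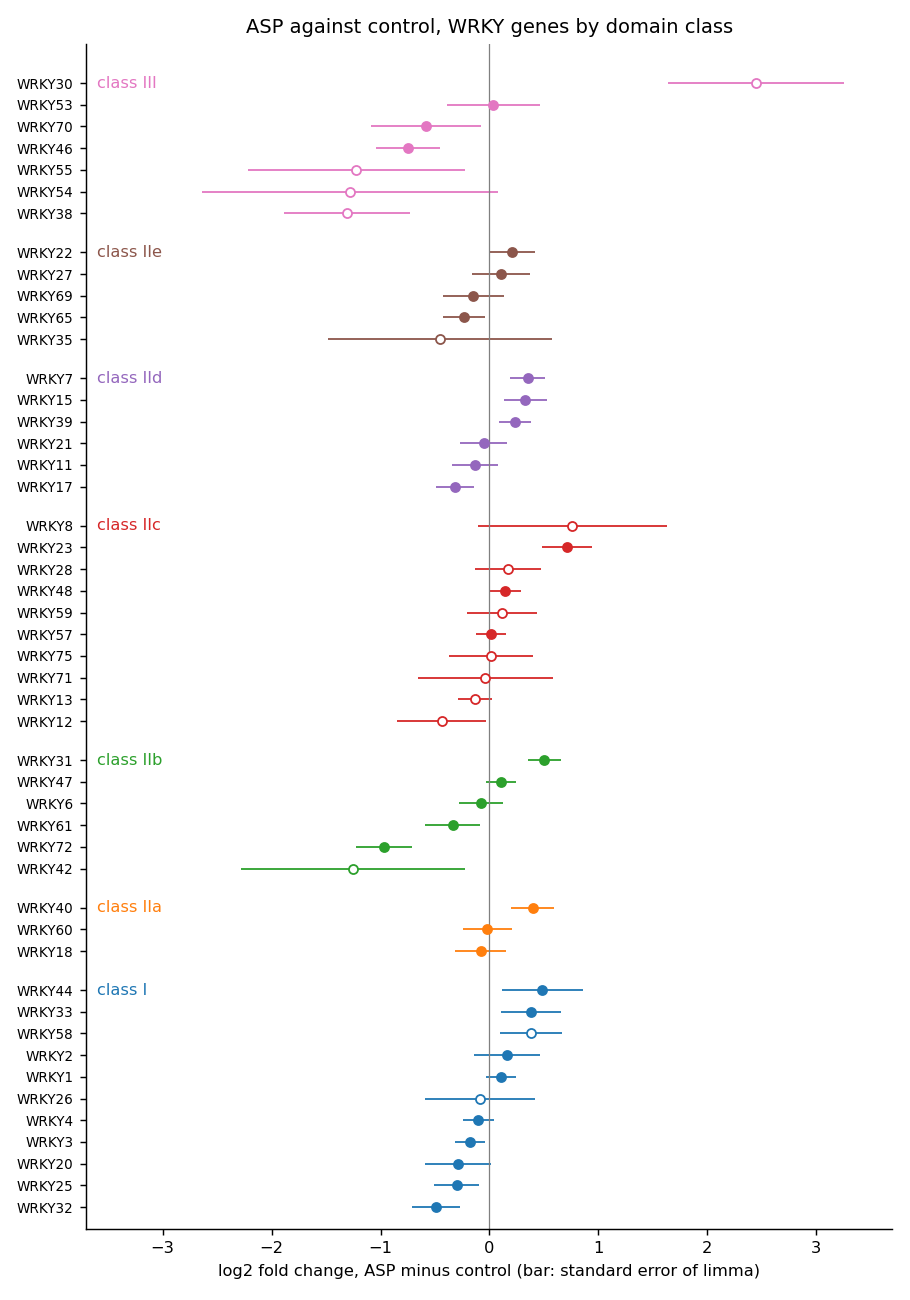
Log2 fold change of each measured WRKY gene, ASP minus control, with its standard error from limma, sorted within domain classes. Filled symbols are genes present on all 4 arrays, which lie between -0.97 for WRKY72 and 0.71 for WRKY23; the widest bars belong to open symbols.

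The defence members of class IIa are WRKY18, WRKY40 and WRKY60, which bind one another and jointly restrain defence and abscisic acid responses. WRKY40 (AT1G80840) had 7.78 and 8.16 in control and 8.36 and 8.38 with ASP. Both ASP arrays lay above both control arrays, with a log2 fold change of 0.40 (standard error 0.20, limma adjusted p 0.764). It was 0.21 without control replicate 1 and 0.59 without control replicate 2. WRKY18 (AT4G31800) had 9.08 and 9.57 in control and 9.31 and 9.18 with ASP, and WRKY60 (AT2G25000) had 7.76 and 8.04 in control and 8.07 and 7.70 with ASP. Both overlapped, with log2 fold changes of -0.08 (95% interval -0.79 to 0.63) and -0.02 (95% interval -0.69 to 0.65). Both intervals include 0 and also a difference of the size seen in WRKY40.

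Class I contributed 11 measured members, of which 6 were lower and 5 higher. WRKY33 (AT2G38470), needed for camalexin synthesis and for resistance to necrotrophic fungi, had 8.18 and 8.66 in control and 9.003 and 8.599 with ASP. The groups overlapped, with a log2 fold change of 0.38 (limma adjusted p 0.820) that ran from 0.15 to 0.62 without single arrays, the lowest without control replicate 1 and the highest without control replicate 2. WRKY25 and WRKY26, which act with WRKY33 in heat responses, had -0.30 and -0.09. WRKY32 had the lowest value of the class, -0.49, with both ASP arrays below both control arrays. WRKY3 and WRKY4, known from resistance to necrotrophs, had -0.18 and -0.10, also without overlap, and WRKY20 had -0.29.

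WRKY44 (AT2G37260), better known as TTG2, a regulator of trichomes and of the seed coat, had 6.005 and 5.102 in control and 6.012 and 6.067 with ASP. Control replicate 2 was the low array, and control replicate 1 lay just under the ASP arrays. The log2 fold change was 0.49 (limma adjusted p 0.825). WRKY1, listed as ZAP1 in the reference, had 0.11, and WRKY2, which acts in zygote polarity, had 0.16. Of 10 measured genes of the trichome and root hair network around WRKY44, 3 were higher and 7 lower, and 0 passed adjustment. Of the 10, 4 were absent on all arrays: the transparent testa genes TT12, TT8 and TT2, and GL2. GL1, a trichome regulator present on 2 arrays, had a log2 fold change of 0.38. WER, the root epidermis regulator, had -0.18.

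Class IId members bind calmodulin, and all 6 were present on all 4 arrays. WRKY7 had the largest log2 fold change, 0.35, and an unadjusted p of 0.0478 from limma with the trend (0.108 without it). WRKY15, linked to oxidative stress, had 0.33, and WRKY39, linked to heat tolerance, 0.24, both without overlap. WRKY17 had -0.32, again without overlap, and WRKY11, which with WRKY17 restrains basal resistance, had -0.13 with overlap. WRKY21 had -0.05.

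Class IIe holds WRKY22 (AT4G01250), a factor downstream of the flagellin receptor. It had 7.85 and 7.84 in control and 8.26 and 7.85 with ASP, so that ASP replicate 1 alone stood higher. Its log2 fold change was 0.21, and it was 0.002 without that array. WRKY27, WRKY65 and WRKY69 had 0.11, -0.23 and -0.15, and WRKY35, present on control replicate 1 alone, had 6.675 and 4.66 in control and 6.06 and 4.36 with ASP. The groups overlapped in all 5 measured members.

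The remaining 9 members of class IIc were near 0 or dim. WRKY48, which restrains basal defence, and WRKY57, linked to drought tolerance, were present on all arrays with log2 fold changes of 0.14 and 0.01. The 95% interval of WRKY57 ran from -0.40 to 0.43. WRKY28, linked to salicylic acid synthesis, was absent on both control arrays and present on both ASP arrays, yet its values overlapped (5.40 and 5.97 against 6.07 and 5.65). Its control values lay above the lowest present signal, so its bound of 1.13 equalled the plain ratio of means and sets no minimum. The log2 fold change was 0.17 (95% interval -0.75 to 1.09), which leaves its direction unsettled. WRKY75, known from phosphate starvation and root hairs, and WRKY71, known from shoot branching, had 0.01 and -0.04. WRKY8, linked to salt and virus responses, had 0.76 with a gap of 2.05 between the control arrays, and WRKY13, a stem lignification factor, had -0.13.

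Replicates of a group differed in a shared direction in some classes. All 7 measured class III genes were higher on control replicate 2 than on control replicate 1, by a median of 1.02 on the log2 scale, whereas 51.4% of all probe sets were. The 3 class IIa genes were also higher there, by a median of 0.38. The class IIe genes went the other way: all 5 were lower on replicate 2 in the control group and all 5 in the ASP group, with medians of -0.32 and -0.42. Over members present on all 4 arrays, the median absolute gap was 0.21 between control arrays and 0.24 between ASP arrays, beside 0.17 and 0.18 over all such probe sets. These classes were singled out after their values were seen, and no test was made.

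**Figure D4:**
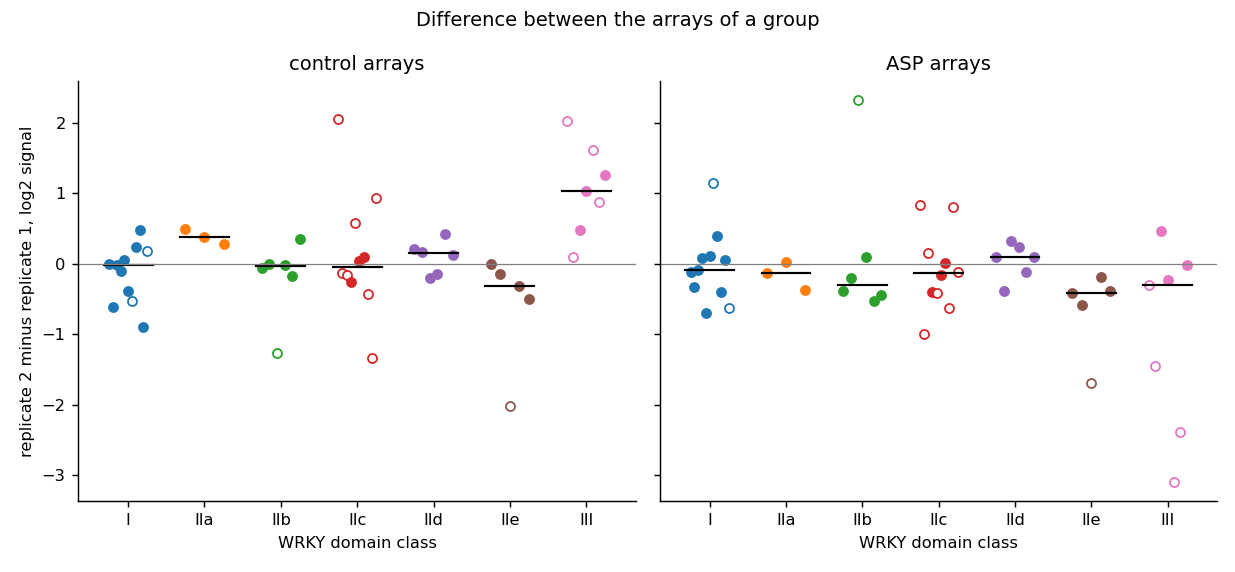
Difference in log2 signal between replicate 2 and replicate 1 within the control group (left) and the ASP group (right) for each measured WRKY gene, by domain class, with a line at the class median. Filled symbols are genes present on all 4 arrays; class III lies above 0 in control with a median of 1.02, and class IIe lies below 0 in both groups.

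Values of other lists are given beside these gaps. Of 13 salicylic acid genes 9 were higher on control replicate 2 than on replicate 1, by a median of 0.10 over the list, and of 11 MAP kinase cascade genes 9 were, by a median of 0.36. The widest such gap of the salicylic acid list was that of SARD1, an activator of salicylic acid synthesis. On the brighter of its 2 probe sets it had 6.04 and 7.21 in control and 5.62 and 5.62 with ASP. The summed signal of 4 root epidermis and root hair markers was 8.91 and 8.36 in control and 8.54 and 8.60 with ASP on the log2 scale. That of 4 endodermis markers was 11.24 and 10.78 in control and 10.64 and 10.51 with ASP. Both sums were highest on control replicate 1, but single markers differed. RSL4 was highest on ASP replicate 2, SCR and MYB36 on ASP replicate 1, and the other markers of both lists on control replicate 1. All 4 endodermis markers had log2 fold changes below 0, that of SCR being -0.04. The 4 guard cell markers summed to 8.30 and 8.64 in control and 8.30 and 8.43 with ASP, and the 2 measured of 5 mesophyll markers to 14.55 and 14.40 against 14.91 and 14.73. Summed vascular markers (4 genes) ran from 10.05 to 10.45, trichome and leaf epidermis markers (4 genes) from 10.57 to 10.75, and root cap markers (3 genes) from 6.27 to 7.34. The trichome and leaf epidermis sum rests almost wholly on ATML1, at 10.42 to 10.68. GL1, GL2 and TRY were dim, and none was present on all arrays. Markers of root and of shoot were both detected, as in whole seedlings, while the root cap genes BRN1 and BRN2, the trichome gene GL2 and the vessel gene VND7 were absent on all arrays. The part of tissue makeup in the WRKY values was not tested.

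Genes that stand before and after the defence WRKYs were read from lists of named pathway genes. In the MAP kinase cascade 6 of 11 were higher and 5 lower, with a median of 0.02. MKK9, a kinase linked to ethylene and camalexin synthesis, had 8.11 and 7.92 in control and 8.93 and 9.09 with ASP, a log2 fold change of 1.00 (limma adjusted p 0.470, and 0.0594 with the trend). It was the cascade gene with the largest difference, followed by MPK11 at -0.85, and MPK6 and MAPKKK5 had -0.22 and 0.36. Of 11 immune receptors and early response genes 2 were higher and 9 lower, with a median of -0.08. But 4 of the 11, FRK1, NHL10, PROPEP2 and PROPEP3, were absent on all arrays, and NHL10 was one of the 2 higher. The flagellin receptor gene FLS2 had 0.56 and the receptor gene PEPR1 -0.45, each without overlap, and CYP81F2 had -0.24. No gene of either list passed adjustment in either fit.

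VQ proteins bind WRKY domains as partners, and 3 of 7 were higher and 4 lower, with a median of -0.18. VQ9 and SIB1 had log2 fold changes of -0.27 and -0.39, and AT1G78410 and JAV1 were absent on all arrays. Of 13 genes of salicylic acid synthesis, signalling and response 6 were higher and 7 lower, with a median of -0.24. These counts include PR2 and PR5, which were absent on all arrays. SARD1, read from the brighter of its 2 probe sets, had -1.004. The transporter gene EDS5 had -0.70, the signalling gene PAD4 -0.34 and the marker PR1, present on 1 array, -0.77. Among 5 genes of camalexin and ethylene synthesis bound by WRKY33, 2 were higher and 3 lower, but 3 of the 5, CYP71A12, CYP71A13 and ACS2, were absent on all arrays. The ethylene synthesis gene ACS6 had 7.83 and 7.57 in control and 8.26 and 8.88 with ASP, a log2 fold change of 0.87 (limma adjusted p 0.674), and the camalexin gene PAD3 had -0.60 with present calls in control only. The 5 genes bound or repressed by WRKY18, WRKY40 and WRKY60 included 3 that were absent on every array, ABI5 and JAZ8 among them. ABF4, an abscisic acid response factor, had -0.05 and RRTF1, present on 1 array, had 0.63. None of these genes passed adjustment in either fit.

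**Figure D5:**
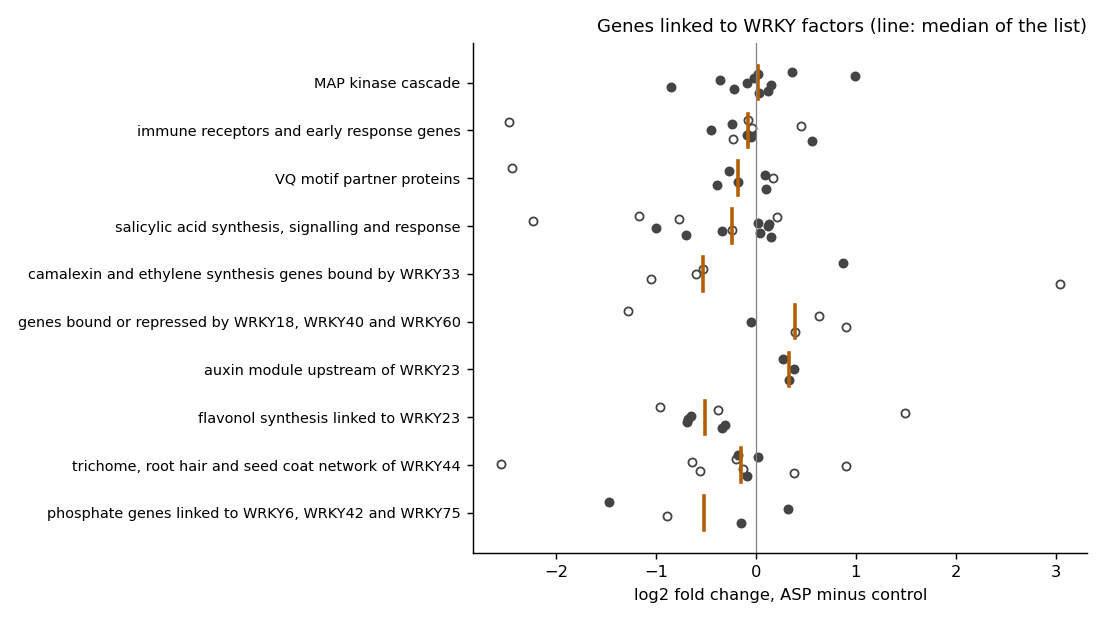
Log2 fold change, ASP minus control, of the 77 measured genes linked to WRKY factors, by list, with a line at each list's median. Filled symbols are genes present on all 4 arrays; the auxin module upstream of WRKY23 lies above 0 in all 3 genes and flavonol synthesis below 0 in 7 of 8.

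In the deposited annotation, 8 of the 48 members carried the term for the response to chitin, a fungal wall polymer. Of these 3 were higher and 5 lower, with a median log2 fold change of -0.08. The term for defence against bacteria was carried by 6 members, 3 of them higher, with a median of 0.01.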

How the data were processed

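The authors deposited normalized log2 signal per probe set with detection calls, per the file headers, and per the labels' protocols biotin-labelled cRNA was hybridised to Affymetrix arrays. How the signal was normalized, and with what software, is not given in the sources used here. Log2 values in the deposited series matrix differed from these by at most 5e-09. The authors' deposited list of differing genes gives, per the file headers, a p-value without adjustment and a fold (a ratio of mean linear signals), and served only to look for members. Another 4 per-sample columns (signal and call of 2 further arrays, 1 named like the control arrays and 1 like the ASP arrays) fitted no sample by name and were left out, while the authors' list rests on 3 columns per group.

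After 64 control probe sets were set aside, 22746 were fitted with limma 3.58.1 in R 4.3.3 (lmFit, eBayes, no trend, two-sided), with Benjamini-Hochberg adjustment over all of them. Residual degrees of freedom were 2 and prior ones 1.34, or 6.06 with the trend. An exact permutation test of 2 against 2 arrays cannot go below 0.333. P-values measure the spread between these samples. A gene absent on every array of the dimmer group, but not on all 4, was given a bound. This was the bright mean over the mean, per dim array, of the higher of its signal and the lowest present signal. Bounds are printed only where no array of the brighter group was absent. A gene with several probe sets was read from its brightest. Both fits were tested on simulated data, with changes of 2-fold or more planted in probe sets above the median signal. Without the trend limma missed the small and moderate of these, so few calls show little. With the trend it recovered these changes but made more false calls than its nominal rate. The simulated variances followed such a trend exactly, and changes below 2-fold were not simulated. The median mean signal was 7.22 for the members and 7.51 for all probe sets. Recovery was therefore not simulated for the dimmer members, WRKY23, WRKY31 and WRKY72 among them. Domain classes and roles are general knowledge of the family. All 53 loci were found in the reference gene table (TAIR10.1), used for names and neighbours only.

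Members, lists, tests and alternatives were chosen with earlier results of these data known. Each array's values are given for WRKY23, for members at an unadjusted p under 0.05, and for 12 defence members, 2 of them unmeasured. Array values of WRKY28, WRKY35, WRKY44 and WRKY55 were added after they were seen. Up to 4 genes with the smallest p are named from each of 10 linked lists, and others only as absent on all arrays. Alternatives were other variance priors, a replicate block, filters, scalings, a floor of 50, each gene's own variance and leaving out each array; the last in combination with the trend was added after seeing the data. Present calls per array ran from 15075 to 15706, and log2 signals of the 14261 always present probe sets correlated at 0.9835 (control) and 0.9845 (ASP) between replicates, against 0.9732 to 0.9796 across groups. With 2 arrays a group, precision is low.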

Additional observations from a re-analysis of the deposited data

How the results depend on the processing

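The count of WRKY members called after adjustment stayed at 0 under all 21 alternatives, including those in which 321 probe sets (replicate block with the intensity trend, 1.41%) or 193 of 15645 (present on at least 2 arrays with the trend, 1.23%) passed. The smallest adjusted p of a member over these settings was 0.176, for WRKY70 without control replicate 1 with the trend. The count at an unadjusted p under 0.05, 4 in the report, was 2 with the replicate block, 1 with each gene's own variance alone and 1 to 4 when an array was left out. It was 5 with the trend, 3 to 6 with the trend when an array was left out, and 6 among probe sets present on at least 2 arrays, and it was 1 without control replicate 2 (WRKY30) and 1 without ASP replicate 2 (WRKY23). The number of members higher with ASP, 22, ran from 18 to 31 without single arrays. The median log2 fold change of -0.05 was -0.0188 without the dimmest 30% of probe sets, -0.0099 after quantile normalization, 0 with linear signal under 50 set to 50, and -0.088 to 0.0671 without single arrays (-0.0071 without control replicate 2). WRKY23 stayed higher under every alternative, from 0.51 to 0.91 (adjusted p 0.275 to 0.890), and its adjusted p was 0.745 with the replicate block. Among the 14 members followed singly, 4 detected ones turned direction when an array was left out: WRKY18 ranged from -0.33 to 0.16, WRKY53 from -0.48 to 0.55, WRKY60 from -0.20 to 0.17 and WRKY70 from -1.21 to 0.0445. WRKY60 was at 0.12 without control replicate 2 and WRKY53 at -0.082 without ASP replicate 1. WRKY54, below detection on every array, gave log2 differences of -2.83 to 0.27 that settle no direction. Under quantile normalization 24 of all members were higher. The cause was not tested.

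Taken over the whole array, same-numbered replicates did not deviate together (correlation of deviations 0.000171 over all probe sets, -0.0238 over those present on all arrays). Their descriptions share a letter, A for replicate 1 and C for replicate 2, but the labels name no shared batch and do not explain the letter. The numbers were not taken as pairs in the main fit, and the replicate block is an alternative. A correlation over all probe sets cannot show whether single genes differed by pair. No member had several probe sets, so averaging them changed nothing.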
